A study of Mus musculus with 4 samples.

Results

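Basement membranes are thin sheets of extracellular matrix on which many cells rest, and stromal cells secrete several of their components. Laminins are trimers of an alpha, a beta and a gamma chain that assemble into a network at the cell surface, while type IV collagen forms a network of its own. Nidogens bind the laminin gamma 1 chain and type IV collagen and so bridge both networks, and the heparan sulfate proteoglycans perlecan and agrin bind laminins and growth factors. In bone marrow, laminins and nidogens line the sinusoids and surround stromal cells that keep blood progenitors, and Wnt3A is a secreted ligand that activates canonical, beta-catenin dependent Wnt signalling.

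The 10 genes described here are the nidogens Nid1 and Nid2, the laminin chains Lama2, Lama4, Lama5, Lamb1, Lamb2 and Lamc1, perlecan (Hspg2) and agrin (Agrn), out of 22860 genes tested. They were found by joining the table's spot numbers to those of the scanner files and taking every non-control probe that carries 1 of these names, directly or through its transcript accession. This gave 17 probes on 26 spots. Of these, 16 probes passed the filter on dim signal, and all 10 genes had at least 1 such probe. For Hspg2 the only probe was named through its description as perlecan. The genes were chosen by their change between these same Wnt3A and Control samples in the table, so their changes are given as a description and support nothing by themselves.

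The samples were cells of OP9, a bone marrow stromal line from mouse, derived from animals without functional M-CSF and used to support blood progenitors in culture. The 2 Wnt3A samples carried the retroviral vector LZRS-IRES-GFP with the Wnt3A gene, and the 2 Control samples carried the vector without it. RNA was amplified by global PCR and hybridised in 1 colour, 1 sample per Agilent mouse array. The labels speak of separate replicates and do not say whether these were separate cultures, so p-values measure only the spread between these samples. With 4 arrays in all precision is low, and 2 samples against 2 cannot give an exact two-sided permutation p below 0.333.

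Values are the linear intensities of the deposited table, in which the median of each array is 1. The table was used because the groups had been seen to separate there and not in the scanner files, so it is not a neutral choice. Changes are differences of log2 intensity after subtraction of each array's 75th percentile, Wnt3A minus Control, with the standard error from limma and p adjusted over all genes tested (Benjamini-Hochberg). A change passed the test when the adjusted p was under 0.05. A probe was counted as above background when it exceeded a floor estimated for its array. This floor lay at 0.0533 and 0.0729 in the Wnt3A arrays and at 0.0702 and 0.0631 in the Control arrays. It was 4.94 times the 1st percentile of the array. That factor came from the scanner files, which did not hold the same measurements. Background was not measured in the table itself, so the floor is approximate. A fold given as at least a value sets the mean of 1 group against the floor of the other. The adjusted p beside such a fold tests the values as read, some of them under the floor, and not the fold itself. Each probe binds with its own strength, so levels of a gene are compared between arrays for the same probe. The sums and percentiles of marker lists below pool different probes, so they are rough descriptions, and bright probes weigh most in the sums.

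The table and the scanner files deposited for the same samples did not hold the same measurements, and this touches every result below. The rank correlation of a table column with the scanner file of the same sample was 0.684 and 0.746 for the Wnt3A arrays and 0.637 and 0.826 for the Control arrays, and all 4 table columns were closest to the scanner file of Control replicate 2. Within the table the correlation was 0.954 between the Wnt3A arrays, 0.95 between the Control arrays and 0.924 to 0.929 between the groups. All 10 mesenchymal stroma markers were above the floor on all 4 arrays, and so were all 10 macrophage and blood markers and all 10 epithelial markers. Passing the floor thus does not set the stromal markers apart. The mesenchymal markers had summed intensities of 1878 and 1888 in Wnt3A arrays and 918 and 1264 in Control arrays. The macrophage and blood markers summed to 12.6 and 11.8 in Wnt3A arrays and 14.6 and 11.7 in Control arrays, and the epithelial markers to 15.8 and 18.7 in Wnt3A arrays and 16.8 and 16.6 in Control arrays. Of 10 endothelial markers, 6 were above the floor on each Wnt3A array and 7 on each Control array, and they summed to 14.7 and 13.5 in Wnt3A arrays and 13.4 and 14.5 in Control arrays. Kdr, Tek, Tie1 and Emcn were too dim to be tested. Among these 4 lists the mesenchymal sum alone differed between the groups without overlap, and its part in the results was not tested. The larger sum came with higher Col3a1 (4.27), Col1a1 (1.81) and Col1a2 (1.35), while the median change of the 10 markers was -0.13 and 6 of them, among them Pdgfra (-2.25), Vcam1 (-1.61), Cxcl12 (-1.44) and Vim (-0.90), were below 0, none past the test in either direction. The mesenchymal markers had a median percentile of 91.2 to 95.7 within the arrays of the table and of 58.4 to 77.1 within the scanner files, while the macrophage and blood markers lay at 44.6 to 50.4 in the table and at 73.9 to 89.7 in the scanner files. The endogenous Wnt3a probe, at base 2599 of its transcript, read 0.0112 and 0.123 in Wnt3A arrays and 0.0151 and 0.0134 in Control arrays. It was above the floor on Wnt3A replicate 2 alone. The sources used here do not give the extent of the insert, so this probe does not check the labels.

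The nidogens moved in opposite directions in the table. Nid1 was lower and Nid2 was higher in Wnt3A cells, and these were the only members of the group to pass the test, 1 in each direction out of 10. Over all genes 0.761% passed, 0.455% higher and 0.306% lower in Wnt3A cells. The groups did not overlap for 8 of the 10 genes, 4 with Wnt3A above and 4 with Wnt3A below. Over all genes 45.2% did not overlap, 21.5% with Wnt3A above and 23.7% below. An unadjusted p under 0.05 was found for 6 of the 10 genes and for 13.7% of all genes. The median change over the 10 genes was -0.05, against -0.01 over all genes, and since the contrast served to choose the genes nothing is read from these shares.

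**Figure D1:**
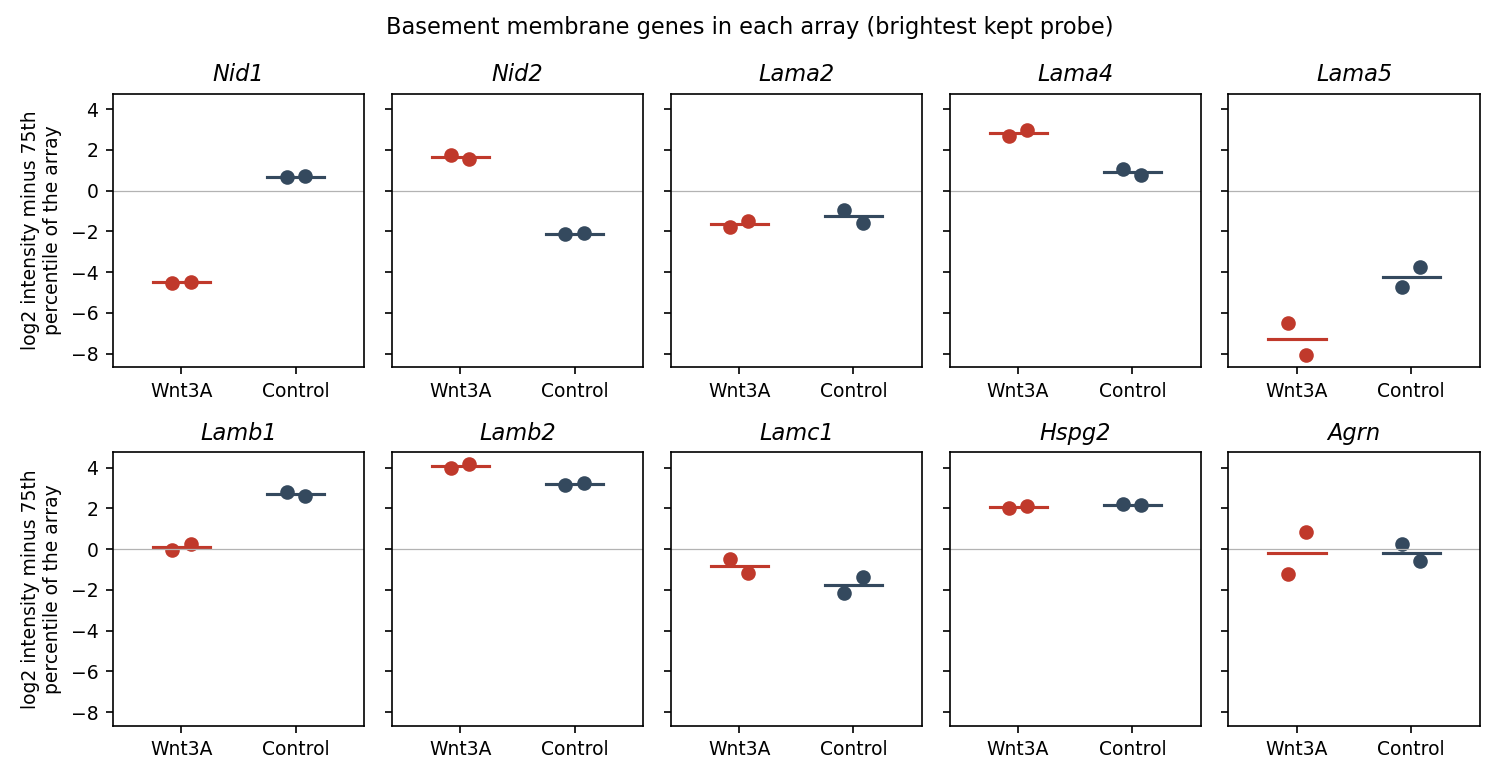
Log2 intensity minus the 75th percentile of the array (y axis) for each of the 10 genes in the 2 Wnt3A arrays (left of each panel) and the 2 Control arrays (right). Points are arrays and bars are group means. Heights are comparable within a panel only. The groups lie farthest apart for Nid1 (Wnt3A below) and Nid2 (Wnt3A above), and they overlap for Lama2 and Agrn.

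Nid1 encodes nidogen-1, the main link between laminin and type IV collagen. Its intensity was 0.208 and 0.220 in the Wnt3A arrays, against 7.48 and 8.22 in the Control arrays. All 4 values were above the floor of their array, the replicates of a group lay close together, and every Wnt3A value was far below both Control values. The change was -5.19 ± 0.27 on the log2 scale (SE, n = 2 each, 95% interval -5.92 to -4.45), which is 36.4-fold lower in Wnt3A cells with an adjusted p of 0.0211 in limma. Nid1 had the 38th lowest change of the 22860 genes. The probe lies on mouse chromosome 13 at 13304276 to 13304335 (build mm8, plus strand) and starts at base 5828 of the transcript.

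Nid2 encodes nidogen-2, the paralogue with overlapping binding partners. Its intensity was 16.0 and 14.5 in the Wnt3A arrays, against 1.07 and 1.19 in the Control arrays. Both Wnt3A values were high and both Control values low, with no overlap. The change was 3.76 ± 0.28 (SE, n = 2 each, 95% interval 3.01 to 4.52), which is 13.6-fold higher in Wnt3A cells with an adjusted p of 0.0303, and it ranked 172nd from the highest. The probe lies on chromosome 14 at 18601964 to 18602023 (mm8, plus strand) and starts at base 4364 of the transcript.

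A difference between 2 probes within 1 array is untouched by any factor applied to the whole array. Nid1 minus Nid2 was -6.27 and -6.04 in the Wnt3A arrays, against 2.80 and 2.78 in the Control arrays on the log2 scale. The difference thus shifted by -8.95 between the group means (SD 0.16 over the Wnt3A arrays and 0.01 over the Control arrays). The levels of these probes are not comparable with each other, and only this shift is.

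Both nidogen calls come from the fit with all 4 arrays. Without any 1 array the change stayed between -5.21 and -5.16 for Nid1 and between 3.67 and 3.85 for Nid2. Such a fit leaves 1 array in a group and cannot measure the spread within it. No call is therefore drawn from those fits, and the stable size of the changes does not show that the calls hold with fewer arrays. With no filter on dim probes the adjusted p of Nid2 was 0.0518. With a replicate block in the limma fit the adjusted p was 0.0696 for Nid1 and 0.0895 for Nid2, and neither passed. In the scanner files Nid1 was well above background only on Wnt3A replicate 1, at 27.8 against 2.58 on Wnt3A replicate 2, and at 2.23 and 3.05 on the Control arrays. It was therefore not tested there. Nid2 read 181 and 43.4 in the Wnt3A scanner files and 6.59 and 105.7 in the Control scanner files, which overlap. Control replicate 1 was not well above background for Nid2. These scanner intensities are not scaled between files, and the whole file of Control replicate 1 was dim, with a median of 7.32. After scaling, the change of Nid2 in the scanner files was -0.24 ± 1.38 (SE) with the processed signal. It was 0.38 ± 0.71 with normexp background correction and quantile normalisation, against 3.76 ± 0.28 in the table. In bulk RNA of this kind, fewer cells that express a gene and less RNA per cell cannot be told apart.

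The genes whose 4 values ran closest to Nid1 in the table were Uty, Tpd52l1 and AK084568, an unnamed transcript. The likeness is the root mean square difference of log2 values, each centred on its own mean over the 4 arrays, and was 0.147, 0.148 and 0.235. All 3 were below the floor on both Wnt3A arrays, where values have no order, so this closeness rests in part on values not above background. Uty is a gene of the Y chromosome, and the file places AK084568 on unassigned Y sequence. Uty read 0.0208 and 0.0182 in the Wnt3A arrays, against 0.784 and 0.878 in the Control arrays, so that no Wnt3A array was above the floor and Uty was at least 13.2-fold lower in Wnt3A cells (adjusted p = 0.0211). The Wnt3A and the Control cells thus differed in Y-linked transcripts as well as in the vector's insert. For Nid1 and every other gene these differences cannot be told apart with this design. Among the 21173 genes above the floor on all 4 arrays, a restriction added after seeing the data, the closest to Nid1 were S100a1 (0.250), Peg10 (0.254) and Prl2c3 (0.267). S100a1, a calcium-binding protein gene, read 4.63 and 4.85 in the Wnt3A arrays, against 112.5 and 136.4 in the Control arrays. Closest to Nid2 were Ncam1, a cell adhesion molecule (0.111), Sntg1, a syntrophin of the dystrophin complex (0.144), and Dep1 (0.146). Sntg1 was below the floor on both Control arrays and Dep1 on Control replicate 1, and with the same restriction Ncam1 was followed by Npnt (0.158). Ncam1 read 24.4 and 25.8 in the Wnt3A arrays, against 1.64 and 1.73 in the Control arrays.

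The laminin alpha chains carry the domains that bind integrins and dystroglycan. Lama4, the alpha chain typical of vascular and mesenchymal basement membranes, had the most probes. The pair shown here overlaps in the transcript, and capitals mark the 29 bases that both contain, so they are not independent measurements of the same RNA. Both are on chromosome 10 (mm8, plus strand), the first at 38795404 to 38795463 and the second across a splice junction between 38794642 and 38795432.
Lama4 probe at base 5500: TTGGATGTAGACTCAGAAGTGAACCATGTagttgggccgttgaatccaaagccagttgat
Lama4 probe at base 5469: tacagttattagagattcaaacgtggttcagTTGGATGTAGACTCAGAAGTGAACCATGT

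The probe at base 5500 read 30.3 and 39.2 in the Wnt3A arrays, against 9.83 and 8.56 in the Control arrays. The probe at base 5469 read 11.8 and 14.7 in the Wnt3A arrays, against 4.003 and 3.06 in the Control arrays. Both were high in both Wnt3A arrays with no overlap, and both changed by 1.92. A further probe at base 4845, which shares no bases with the pair, read 7.07 and 6.40 in the Wnt3A arrays, against 1.51 and 2.57 in the Control arrays, a change of 1.78. The brightest probe gave 3.79-fold more in Wnt3A cells (1.92 ± 0.31, SE, 95% interval 1.07 to 2.77), and the adjusted p of 0.118 did not pass the test. The 4th probe, on another transcript at base 2243, was too dim for the test, at 0.354 and 0.0647 in the Wnt3A arrays and 0.0917 and 0.0477 in the Control arrays.

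Lama5 encodes the alpha chain of most mature epithelial and vascular basement membranes. It read 0.0526 and 0.0185 in the Wnt3A arrays, against 0.178 and 0.381 in the Control arrays. Neither Wnt3A value reached the floor while both Control values did, so Lama5 was at least 4.15-fold lower in Wnt3A cells. The adjusted p was 0.190. The annotation places only 15 of its probe's bases, at 180105781 to 180105795 of chromosome 2 (mm8).

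Lama2, the alpha chain of muscle and nerve basement membranes, was measured by 3 probes, 1 of them on 10 spots of every array. That repeated probe lies on chromosome 10 at 26673839 to 26673898 (mm8, minus strand) and is shown because its spots give the error within an array.
Lama2 probe at base 9061: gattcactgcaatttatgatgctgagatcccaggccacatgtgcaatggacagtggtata

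Over its 10 spots the mean was 0.739 ± 0.041 and 1.07 ± 0.040 in the Wnt3A arrays, against 0.966 ± 0.064 and 0.748 ± 0.047 in the Control arrays (SD over spots). The arrays of 1 group differed by more than the spots of 1 array. The SD between spots was 0.053 to 0.099 on the log2 scale, while the SD between arrays was 0.36 for Wnt3A and 0.34 for Control. Neither group was higher as a whole, and the change was 0.08 (95% interval -0.94 to 1.101). The brightest Lama2 probe, at base 8675, read 1.37 and 1.72 in the Wnt3A arrays, against 2.48 and 1.72 in the Control arrays, and its change of -0.41 ± 0.36 (95% interval -1.39 to 0.57) had an adjusted p of 0.705. The probe at base 218 changed by 0.21 with overlapping groups.

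**Figure D2:**
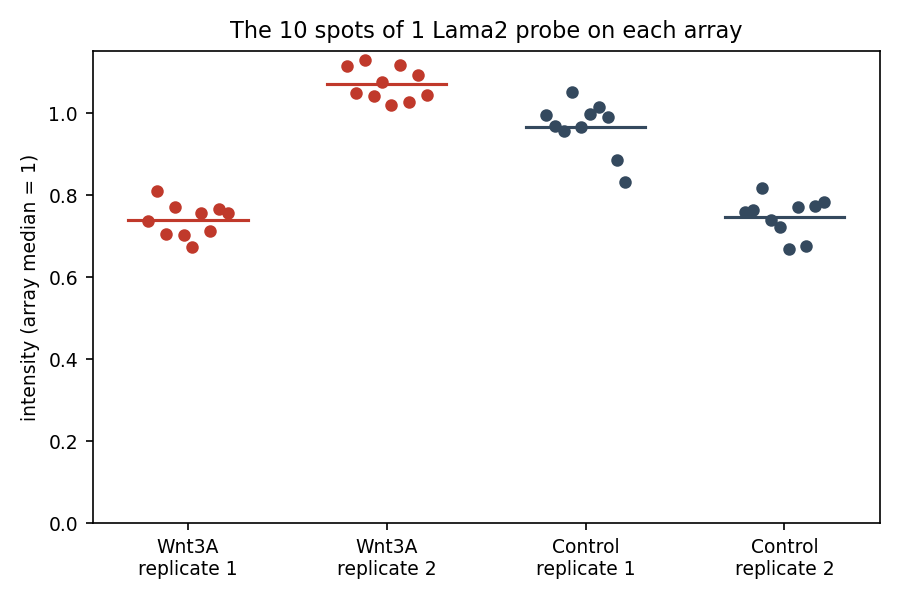
Intensity (y axis, linear, array median 1) of the 10 spots of the Lama2 probe at base 9061 on each array, with Wnt3A arrays on the left. Points are spots and bars their mean. The spots of an array cluster around means of 0.739, 1.07, 0.966 and 0.748, and the arrays of a group lie apart.

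The beta chains moved in opposite directions, but neither passed the test. The probe of Lamb1, the widely expressed beta 1 chain, spans a splice junction on chromosome 12 between 31913875 and 31915221 (mm8, plus strand). The probe of Lamb2, the beta 2 chain of neuromuscular and kidney basement membranes, lies on chromosome 9 at 108347961 to 108348020 (mm8, plus strand). They are shown in full because the contrast between these paralogues rests on 1 probe each.
Lamb1 probe at base 5332: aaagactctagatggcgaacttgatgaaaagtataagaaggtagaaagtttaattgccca
Lamb2 probe at base 5048: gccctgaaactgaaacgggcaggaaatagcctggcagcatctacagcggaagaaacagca

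Lamb1 read 4.60 and 5.82 in the Wnt3A arrays, against 33.4 and 30.8 in the Control arrays. Both Wnt3A values were well below both Control values. The change was -2.62 ± 0.30 (SE, 95% interval -3.44 to -1.81), 6.15-fold lower in Wnt3A cells, with an adjusted p of 0.0639. It passed the test in the single alternative that let the variance follow the intensity and used a robust prior (adjusted p = 0.0260). In the scanner files the Lamb1 probe was well above background on Wnt3A replicate 1 at 31.4 and on Control replicate 2 at 92.6, and not on the other 2 arrays.

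Lamb2 read 76.6 and 87.7 in the Wnt3A arrays, against 42.4 and 48.6 in the Control arrays. The groups did not overlap, and the change was 0.86 ± 0.28 (95% interval 0.11 to 1.62), 1.82-fold higher in Wnt3A cells with an adjusted p of 0.315. In the scanner files, where it was well above background on all 4 arrays, its change was -0.73 ± 1.38 (SE, processed signal), so its sign there was not resolved. Within the table, Lamb1 minus Lamb2 was -4.06 and -3.91 in the Wnt3A arrays, against -0.34 and -0.66 in the Control arrays. The separation is wider than the SD of 0.10 over the Wnt3A arrays and 0.22 over the Control arrays, and amounts to -3.48 on the log2 scale.

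Lamc1 encodes the gamma 1 chain, which most laminin trimers share and to which nidogens bind. It read 3.46 and 2.15 in the Wnt3A arrays, against 1.05 and 1.94 in the Control arrays. The lowest Wnt3A value was just above the highest Control value. The change was 0.95 ± 0.45 (95% interval -0.28 to 2.17) with an adjusted p of 0.479, so a difference was not resolved at this spread.

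Perlecan, encoded by Hspg2, is the large heparan sulfate proteoglycan of most basement membranes. Its probe read 19.7 and 21.5 in the Wnt3A arrays, against 21.9 and 22.8 in the Control arrays. The values lay close together in all 4 arrays, with both Wnt3A values slightly below both Control values. The change was -0.11 ± 0.27 and its 95% interval ran from -0.85 to 0.64, with an adjusted p of 0.915. In the scanner files the change was -0.002 ± 1.38 (SE, processed signal).

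Agrin, which clusters acetylcholine receptors at the neuromuscular junction and also occurs in bone marrow stroma, was measured by 3 probes. The brightest, at base 6747, read 2.09 and 8.80 in the Wnt3A arrays, against 5.60 and 3.36 in the Control arrays. The Wnt3A replicates lay on either side of both Control values, and the change of -0.004 ± 0.80 had a 95% interval of -2.17 to 2.16. The probe at base 364 read 4.995 and 3.56 in the Wnt3A arrays, against 2.36 and 2.95 in the Control arrays, a change of 0.69 with an adjusted p of 0.509 over all probes. The probe at base 176 read 0.128 and 0.744 in the Wnt3A arrays, against 0.0670 and 1.35 in the Control arrays, and changed by 0.05. The 3 probes thus placed no common bound on Agrn, and the sign of its change depended on the array or probe used.

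**Figure D3:**
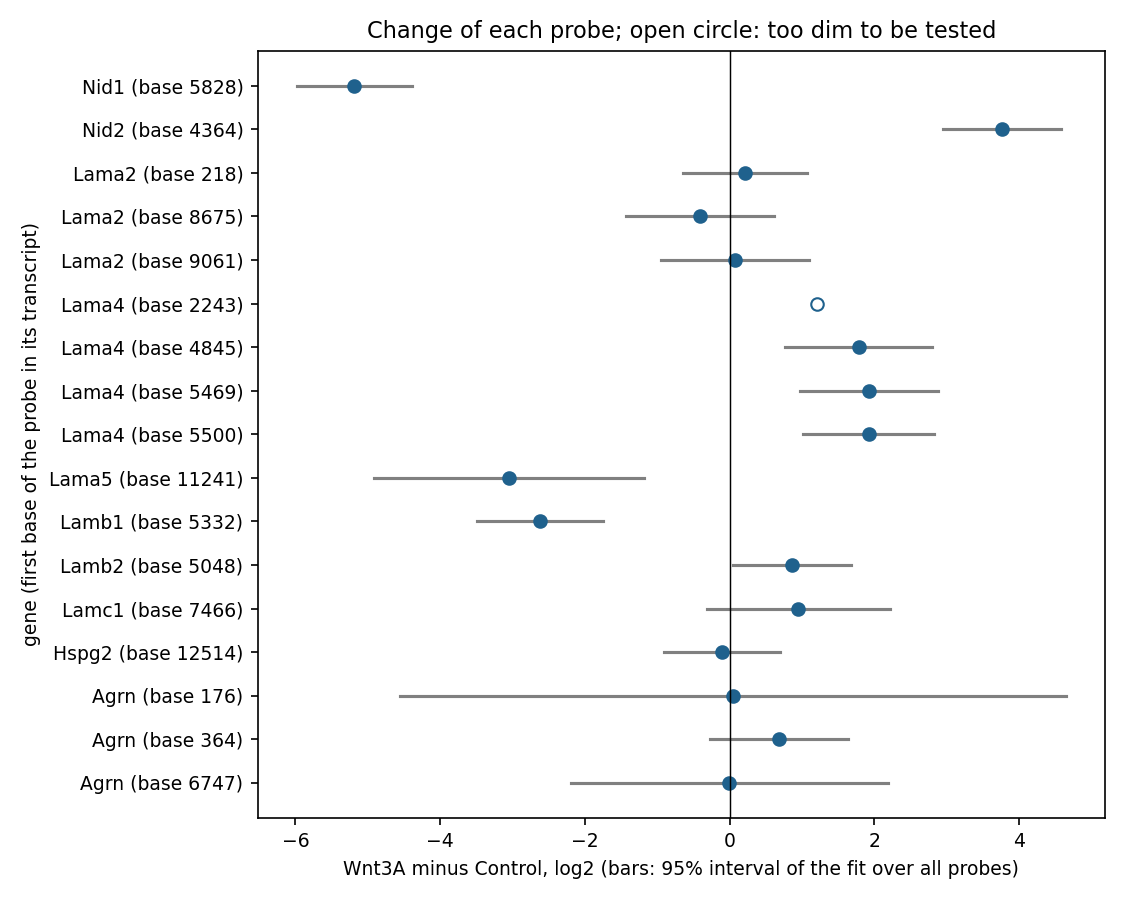
Wnt3A minus Control on the log2 scale (x axis) for each of the 17 probes, by gene and first base in its transcript (y axis). Bars are 95% intervals of a limma fit over all kept probes, and the open circle is the Lama4 probe that was too dim to be tested. The 3 tested Lama4 probes lie between 1.78 and 1.92, the Lama2 probes between -0.41 and 0.21, and the intervals of all Lama2 and Agrn probes include 0.

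Promoters are shown for Nid1, which fell in Wnt3A cells, and for the paralogues Lamb1 and Lamb2, whose changes of -2.62 and 0.86 in the table did not pass the test. The sequences are the 250 bases before the transcript start in RefSeq (build GRCm38.p6, all on the plus strand), which held entries for 7 of the 10 genes, 8 entries in all. Capitals mark GC boxes (GGGCGG on either strand). The TCF/LEF motifs of canonical Wnt signalling (the words CTTTGAA and CTTTGAT, and also the words CTTTGTA and CTTTGTT, on either strand) were searched too.
Nid1, chr13:13437352-13437601: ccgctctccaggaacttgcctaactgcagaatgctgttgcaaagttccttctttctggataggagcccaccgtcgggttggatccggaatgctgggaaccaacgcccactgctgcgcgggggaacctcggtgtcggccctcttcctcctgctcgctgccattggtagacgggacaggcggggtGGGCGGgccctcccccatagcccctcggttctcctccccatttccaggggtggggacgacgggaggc
Lamb1, chr12:31265043-31265292: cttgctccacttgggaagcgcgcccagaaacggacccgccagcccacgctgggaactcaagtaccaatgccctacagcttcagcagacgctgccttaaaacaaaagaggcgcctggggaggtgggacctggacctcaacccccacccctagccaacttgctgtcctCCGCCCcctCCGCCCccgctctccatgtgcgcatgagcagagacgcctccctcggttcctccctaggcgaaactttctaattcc
Lamb2, chr9:108479612-108479861: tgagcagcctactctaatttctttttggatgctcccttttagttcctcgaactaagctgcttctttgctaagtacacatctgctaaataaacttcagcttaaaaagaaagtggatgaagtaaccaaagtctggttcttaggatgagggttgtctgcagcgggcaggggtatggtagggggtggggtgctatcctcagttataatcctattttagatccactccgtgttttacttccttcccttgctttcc

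The Nid1 window had 1 GC box and 64.4% G or C, and the Lamb1 window had 2 GC boxes and 62.0% G or C. The Lamb2 window had none and 43.6% G or C. None of these 3 windows held a TCF/LEF match. Among the 8 entries, 6 had a GC box, against 32.7% of 32851 promoters, and 1 had a TCF/LEF match, in the second of the Agrn entries, against 14.8% of all promoters. These matches describe the letters of the windows only.

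The 5 other laminin chains gave no gene that passed the test in either direction, with a median change of 0.04, and 1 had an unadjusted p under 0.05. For this list and the 3 below, the shares over all genes were 0.455% rising, 0.306% falling and 13.7% at an unadjusted p under 0.05. The lists were chosen with earlier results known, so nothing is read from their counts. Lama1, the alpha chain of early embryonic basement membranes, read 11.3 and 0.434 in the Wnt3A arrays, against 0.0186 and 0.0168 in the Control arrays. No Control array was above the floor, so the mean of the 2 Wnt3A arrays was at least 33.5-fold higher. This bound does not hold for each array, because it rests largely on Wnt3A replicate 1. The Wnt3A arrays differed widely from each other (SD 3.35 on the log2 scale) and the adjusted p was 0.202. Lama3, the alpha chain of skin basement membranes, changed by -0.65 ± 0.39 (adjusted p = 0.571).

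None of the 8 basement membrane collagens passed the test, and 4 had an unadjusted p under 0.05, against 13.7% of all genes. Their median change was -1.01, with 7 of 8 changes below 0. Over all genes the median was -0.01, and 11658 of 22860 changes were below 0. Col4a1, a core chain of type IV collagen, read 7.41 and 9.39 in the Wnt3A arrays, against 32.6 and 41.6 in the Control arrays. Its change of -2.13 ± 0.30 had an adjusted p of 0.0945. Col18a1, the source of endostatin, changed by -1.65 ± 0.29 (adjusted p = 0.127).

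Of 16 tested genes among 19 other basement membrane proteins, 2 rose and 1 fell. The median change was 0.49, but it turned to -0.17 when probes of a gene were averaged, to -0.11 over genes above the floor on all 4 arrays and to -0.31 and -0.11 in the scanner values, and it was 0.13 without Control replicate 2. Npnt encodes nephronectin, an integrin ligand, and read 36.8 and 41.5 in the Wnt3A arrays, against 2.28 and 2.95 in the Control arrays. It was 15.2-fold higher in Wnt3A cells (3.92 ± 0.29, adjusted p = 0.0303). Fras1, part of the Fraser complex that joins epithelium to dermis, read 0.467 and 1.08 in the Wnt3A arrays, against 0.0142 and 0.0131 in the Control arrays. No Control array was above the floor, and Fras1 was at least 10.8-fold higher in Wnt3A cells. The adjusted p of 0.0388 in limma belongs to the change of 5.72 ± 0.49 in the values as read. Efemp1 encodes fibulin-3, an extracellular glycoprotein, and read 0.345 and 0.471 in the Wnt3A arrays, against 58.3 and 93.3 in the Control arrays. It was 182-fold lower in Wnt3A cells (-7.51 ± 0.36, adjusted p = 0.0209).

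No gene of the 18 receptors passed the test, 5 had an unadjusted p under 0.05 and the median change was -0.17. Itga6, a laminin-binding integrin chain, read 3.43 and 3.47 in the Wnt3A arrays, against 15.7 and 16.2 in the Control arrays, a change of -2.20 ± 0.27 (adjusted p = 0.0713). Lrp4, the agrin receptor, read 2.68 and 5.94 in the Wnt3A arrays, against 0.163 and 0.0442 in the Control arrays. It changed by 5.57 ± 0.82 (adjusted p = 0.0988), and only 1 Control array was above the floor.

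**Figure D4:**
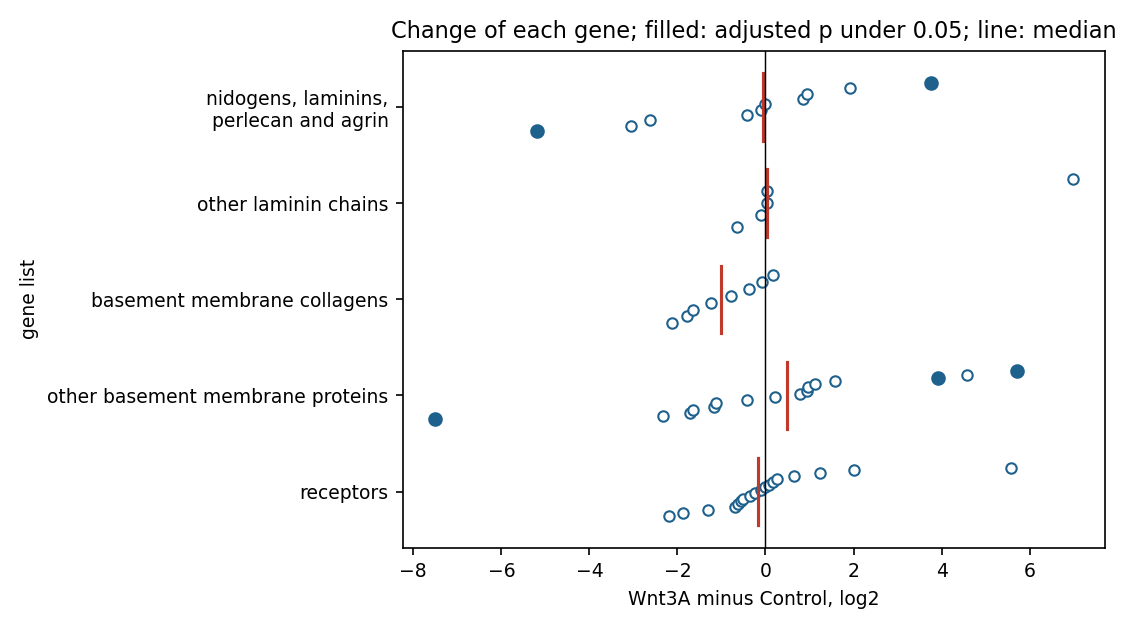
Wnt3A minus Control on the log2 scale (x axis) for each tested gene of 5 lists (y axis). Points are genes, filled where the adjusted p was under 0.05, and lines are medians. Nid1 and Nid2 are the filled points of the top list. Of the 8 basement membrane collagens 7 lie below 0, as do 11658 of all 22860 genes tested.

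The processed signal of the scanner files was set against the table for the 12 probes that were well above background on at least 2 of the 4 scanner arrays. The direction was the same in both sources for 5 of these 12. A sign carries little where a value lies near 0. This applies to Hspg2 (-0.11 in the table and -0.002 in the scanner files) and the brightest Agrn probe (-0.004 and -0.94), counted as the same. It also applies to the Lama2 probe at base 9061 (0.08 and -0.14), counted as not the same. Over the whole array the scanner values gave 2 genes past the test out of 20746, or 0.00964%, and none of the 7 members tested there, with none at an unadjusted p under 0.05 in either scanner setting. The sign was shared for Lamb1 (not well above background on 1 array of each group), Hspg2 and the brightest probes of Lama4, Lama2 and Agrn. It was not shared for Nid2, Lamb2, Lamc1, the Lama4 probe at base 5469, the Lama2 probes at bases 9061 and 218 and the Agrn probe at base 364. With normexp on the same files, Nid2 (0.38 ± 0.71, SE) and Lamc1 (0.33 ± 0.70) had the table's sign and Lamb2 (-0.44 ± 0.85) did not. Each of these changes was smaller than its SE.

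**Figure D5:**
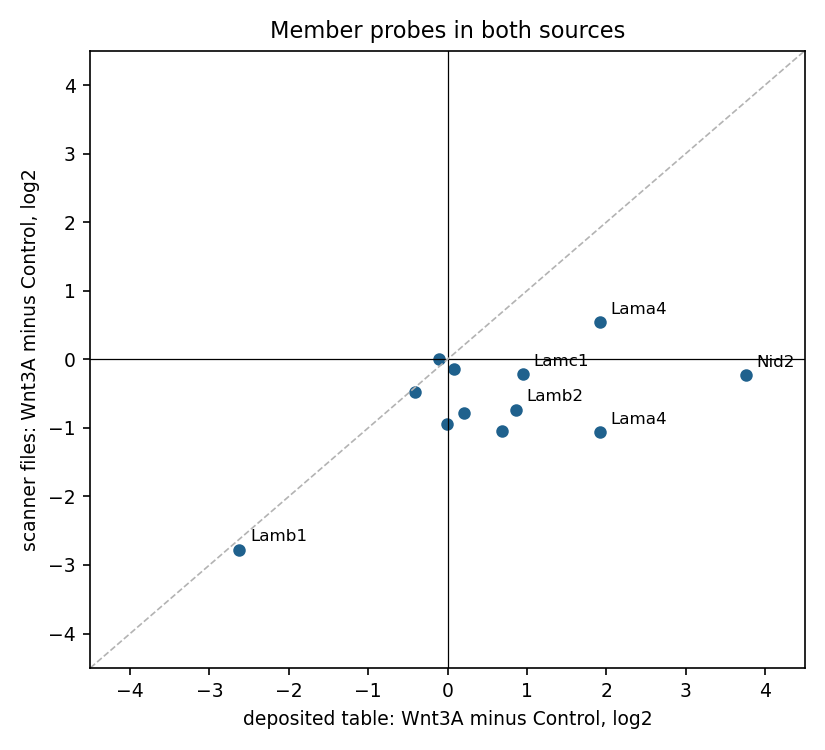
Wnt3A minus Control on the log2 scale in the deposited table (x axis) and in the processed signal of the scanner files (y axis) for the 12 probes well above background on at least 2 scanner arrays. Points are probes and the dashed line marks equal changes. Nid2 lies at 3.76 and -0.24. Lamb1 lies at -2.62 and -2.78, but 1 scanner array of each group was not well above background for it, so its scanner value is not a measured difference.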

How the data were processed

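The authors deposited a table of linear intensity values for 43379 non-control spots (41174 probes), with a median of 1 in each of its 4 columns, and 1 scanner file per sample. Agilent Feature Extraction is named in the submitters' processing notes. How the table was scaled beyond that is not given in the sources used here. Per the file headers, the scanner files come from Feature Extraction 10.5.1.1 on 1 slide and hold intensity values with background subtracted, raw means, and other flags (0 or 1) for signal above background and uneven spots. No spot was saturated. The table's ID numbers were read as spot numbers of the scanner files. Spots of the 245 probes present more than once had a median SD of 0.082 to 0.101 on the log2 scale in the table, against 3.60 to 3.75 over all these spots.

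Log2 of the deposited intensity minus the 75th percentile of each array was fitted by lmFit and tested two-sided by eBayes (R 4.3.3, limma 3.58.1). Probes were kept if above the floor, 4.94 times the 1st percentile of an array, on both arrays of at least 1 group. The factor was the median of 4 estimates, 1 from each scanner file. The kept probe with the highest mean stood for a gene. The fit was tested on simulated data. A fold beyond the floor is given as at least the value against it, from group means of log2 values. The p beside it is that of the values as read. Names came from RefSeq accessions for 24375 probes, and 8071 kept the file's name. Probe positions are those of the files, on mm8.

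The members, lists and source were chosen with earlier results of these data known. The table was taken as the source because the groups had been found to separate there and not in the scanner files. Named are all members with every probe, the genes of each related list past the threshold or the 2 with the smallest p, and the 3 genes closest to each nidogen. The alternatives were other scalings, filters, eBayes settings, probe rules, a replicate block, each array left out and the scanner values. An adjustment over all kept probes and a search for similar genes above the floor on all 4 arrays were added after seeing the data.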

Additional observations from a re-analysis of the deposited data

How the results depend on the processing

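In the table, the count of 174 genes stayed between 147 and 240 with quantile or median scaling, a higher floor, the mean of probes, other eBayes settings or p adjusted over probes. It was 82 with no filter, 40 when all 4 arrays had to exceed the floor, 2 in processed scanner values (538 at an unadjusted p under 0.05) and 0 with normexp on the scanner values (321 unadjusted). Leaving out any 1 array leaves 1 array in a group, so no count of genes or members is given for those fits. The 2 members called became 1 with no filter, where the adjusted p of Nid2 was 0.0518, and 0 in both scanner settings. The cause was not tested. Replicate numbers did not pair the samples (correlation of deviations 0.015), and a replicate block left 0 genes and 0 members (3097 genes unadjusted, adjusted p of 0.0696 for Nid1 and 0.0895 for Nid2).

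The direction of Nid1, Nid2, Lama4, Lama5, Lamb1, Lamb2, Lamc1 and Hspg2 was the same in every table alternative run. Agrn reversed to 0.24 with the mean of probes and ranged from -1.02 to 1.01 when 1 array was left out, with 0.42 without Control replicate 1. Lama2 reversed to 0.15 without Control replicate 1. In processed scanner values Nid2 (-0.24), Lamb2 (-0.73) and Lamc1 (-0.22) reversed, and with normexp Lamb2 (-0.44) did. The SE was 1.38 for each in processed values and 0.85 for Lamb2 with normexp, so none of these signs was resolved. The median of the other basement membrane proteins was -0.17 with the mean of probes, -0.11 when all 4 arrays had to exceed the floor, -0.31 in processed scanner values and -0.11 with normexp. The median of the other laminin chains ranged from -0.55 without Control replicate 2 to 0.63 without Control replicate 1. Values under the floor have no order, which limits every gene or probe with such a value, among them Lama5, Lama1, Fras1, Lrp4, the Agrn probe at base 176 and the Y-linked genes that fell.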

Other observations

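Y-linked genes were looked at after Uty had come out as the gene closest to Nid1, so this list was chosen with its values seen. Of 8 genes on chromosome Y that were tested, 3 fell and 0 rose, against 0.306% and 0.455% of all genes. The list leaves out unassigned Y sequence, where AK084568 lies. AK084568 was below the floor on both Wnt3A arrays and also fell (adjusted p = 0.0273 in limma). Ddx3y, an RNA helicase gene, read 0.0368 and 0.0469 in the Wnt3A arrays, against 0.981 and 0.962 in the Control arrays, and was at least 15.5-fold lower in Wnt3A cells (adjusted p = 0.0257). Eif2s3y, which encodes a translation initiation factor subunit, read 0.0119 and 0.0162 in the Wnt3A arrays, against 0.699 and 1.94 in the Control arrays, and was at least 18.6-fold lower (adjusted p = 0.0388). Together with Uty, these 3 genes were above the floor on no Wnt3A array and on both Control arrays. Kdm5d, a histone demethylase gene, read 0.0628 and 0.0501 in the Wnt3A arrays, against 0.236 and 0.178 in the Control arrays, a change of -1.86 ± 0.35 (adjusted p = 0.141) with 1 Wnt3A array above the floor. Zfy1 and Zfy2 changed by 0.31 and 1.24, Sry by -0.08 and AK007945 by -0.13, none past the test, and all of these were above the floor on all 4 arrays. These probes share the 4 arrays with every result above. The part of this difference in the changes of Nid1, Nid2 and the laminin chains was not tested. With this design it cannot be told apart from the part of the insert.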
